A study of Homo sapiens with 12 samples.

Results

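The transcripts of 9 genes known as targets of the transcription factor p53 were followed in the human breast cancer line MDA-231-LM2. They are CDKN1A, GADD45A, MDM2, BBC3, PMAIP1, BAX, FAS, TNFRSF10B and ZMAT3, taken by symbol from a gene table of 21574 features. All 9 were found, and all 9 were among the 13071 features abundant enough to be tested. LM2 is a derivative of MDA-MB-231 selected for metastasis to the lung. The parental line is known for its mutant p53, so these genes were read in cells without the normal protein. RNA was sequenced from 4 groups with 3 libraries each: cells labelled TMEM216 with IGF1, cells labelled TMEM216 without IGF1, cells labelled Ctrl with IGF1 and cells labelled Ctrl without IGF1. TMEM216 is a membrane protein of the transition zone of the primary cilium, and IGF1 is a growth factor that signals through a receptor tyrosine kinase to AKT and MAPK. The labels do not state how TMEM216 was altered, what the Ctrl cells received, the dose or duration of IGF1, whether a population was 1 clone, or whether the libraries came from separate cultures. The p-values thus reflect only how far these libraries scatter, and that scatter may be technical.

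In cells with intact p53, DNA damage and other stresses stabilise the protein, which then binds response elements near its target genes. One arm of the response arrests the cell cycle, through CDKN1A and GADD45A. A death arm acts at the mitochondrion, through BBC3, PMAIP1 and BAX, or at the cell surface, through FAS and TNFRSF10B. MDM2 closes a feedback loop, since it is an E3 ubiquitin ligase that marks p53 for degradation. Several of these genes are also known to be driven without p53. BBC3, PMAIP1, TNFRSF10B and GADD45A have been described as responsive to the endoplasmic reticulum and amino acid stress factors ATF4 and CHOP, and CDKN1A to factors such as KLF4 and SP1.

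Promoter windows are shown for MDM2 and BBC3, because the first holds the clearest p53 element among the members and the second belongs to the member with the largest called difference. They come from RefSeq on GRCh38.p14 and run from 250 bases before to 50 bases after an annotated start, read 5′ to 3′ on the strand of the gene. RefSeq windows were read for 7 of the 9 members, 13 windows in all. GADD45A and TNFRSF10B are named only. The search for member windows left out the chromosome of TNFRSF10B, so its missing window does not mean that RefSeq holds none. Capitals mark matches to the p53 decamer, the unit that p53 elements repeat, with at most 1 mismatch, and in the MDM2 window they mark only the pair of decamers. The fixed C and the fixed G inside the decamer had to match, so a mismatch was allowed only at its other bases.
MDM2, chr12:68808767-68809066, + strand: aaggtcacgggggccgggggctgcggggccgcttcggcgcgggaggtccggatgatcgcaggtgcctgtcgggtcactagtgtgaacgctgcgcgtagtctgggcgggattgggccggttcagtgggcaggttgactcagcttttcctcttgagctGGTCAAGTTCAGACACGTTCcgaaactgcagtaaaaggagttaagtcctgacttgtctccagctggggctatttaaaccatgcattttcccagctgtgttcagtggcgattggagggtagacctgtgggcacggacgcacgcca
BBC3, chr19:47232618-47232917, - strand: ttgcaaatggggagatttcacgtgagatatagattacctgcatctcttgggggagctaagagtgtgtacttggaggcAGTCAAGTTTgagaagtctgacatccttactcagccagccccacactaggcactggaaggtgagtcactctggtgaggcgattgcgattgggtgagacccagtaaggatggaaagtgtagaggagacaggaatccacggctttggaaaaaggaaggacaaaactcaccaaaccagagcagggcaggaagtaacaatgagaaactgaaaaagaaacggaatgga

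The MDM2 window surrounds the start of the internal promoter known to respond to p53, and its pair of decamers begins 94 bases before that start. A pair of decamers with at most 1 mismatch each and at most 13 bases between them occurred in 2 of the 13 member windows. Both belong to MDM2 and overlap. The same pair occurred in 1.84% of 35116 RefSeq promoter windows. Because a gene's TPM sums its transcripts, the values below do not separate this promoter from the upstream one. The BBC3 window held a single decamer, 173 bases before the start, a match found in 45.1% of all windows, and 1 E-box (CACGTG), found in 7.26%. The BAX window held 4 E-boxes and no p53 decamer. The CDKN1A window held 4 GC boxes (GGGCGG) and no p53 decamer, and the PMAIP1 window also held 4 GC boxes. GC boxes occurred in 11 of the 13 member windows and in 45% of all windows. A decamer with at most 1 mismatch occurred in 10 of the 13 member windows and in 45.1% of all windows. The 13 windows come from 7 genes, and some windows of MDM2 and of FAS overlap. The same letters can thus be counted more than 1 time, and these are not counts of separate promoters. A decamer with no mismatch occurred in 1 of the 13 member windows, at FAS, and in 6.63% of all windows. No member window held the C/EBP-ATF element TTGCATCA, the cAMP response element TGACGTCA or TATAAA, which were found in 0.866%, 1.85% and 11.5% of all windows. All motifs were searched on both strands. A match is a description of letters, and known p53 elements of several members lie outside these windows.

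The labels were first checked against TMEM216 itself. It averaged 226 ± 5.70 TPM in TMEM216 cells with IGF1 and 27.3 ± 2.60 TPM in Ctrl cells with IGF1, and 212 ± 44.1 TPM in TMEM216 cells without IGF1 against 26.4 ± 3.25 TPM in Ctrl cells without IGF1 (SD, n = 3 each). TPM is a share of each library, scaled by transcript length and to a fixed total, and the number of reads behind it is unknown. Between 12517 and 12757 features reached 1 TPM per library. Vimentin, CD44, KRT18 and EGFR, markers of this line, averaged 6309, 448, 949 and 67.3 TPM over the 12 libraries. ESR1, PGR and CDH1, which the line lacks, stayed at or below 0.204 TPM in every library, and ERBB2, also listed as low in the line, averaged 36.0 TPM. Of 8 markers of other cell types, PTPRC, CD3E, VWF, COL1A2 and DCN stayed at or below 0.651 TPM. PDGFRB averaged 0.975 TPM, EPCAM 13.7 TPM and PECAM1 1.20 TPM. PECAM1 rose to 1.83 TPM in TMEM216 cells with IGF1, against 0.766 TPM in Ctrl cells with IGF1 (log2 difference 0.68, SE 0.14, adjusted p = 0.0324), a call that held in 8 of 20 alternatives, and its average over IGF1 was called too (adjusted p = 0.0440, held in 5 of 19). With single libraries left out, these adjusted p values reached 0.152 with IGF1 and 0.115 in the average. Its part in the results was not tested. Replicate 3 of Ctrl with IGF1 and replicate 1 of TMEM216 without IGF1 stood apart on the first principal component, at -31.0 and -19.4, where the other 10 libraries lay between -8.44 and 18.2. Ribosomal protein genes held 15.6% and 13.7% of the TPM in these libraries, against 11.6% to 13.3% in the others. Member values without them are given below for some of the comparisons.

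Across the 9 members, lower transcript levels in TMEM216 cells centred on 2 genes, BBC3 and GADD45A. Averaged over IGF1, BBC3 fell to 5.61 ± 0.910 TPM in TMEM216 cells, against 9.41 ± 1.58 TPM in Ctrl cells, and GADD45A fell to 80.2 ± 11.4 TPM in TMEM216 cells, against 109 ± 2.92 TPM in Ctrl cells (SD, n = 6 each). These were 2 of 9 members called, both lower, where 5.22% of all tested features were called in either direction and 3.21% were called lower. Within IGF1-treated cells the call was GADD45A alone, 1 of 9, against 1.61% of features called and 0.696% called lower. Without IGF1 it was BBC3 alone, again 1 of 9, against 1.09% of features called and 0.941% called lower. A call is a Benjamini-Hochberg adjusted p under 0.05 from limma over all tested features, on log2(TPM + 1), a scale that understates the change of low genes. The median log2 difference over the members was -0.14 averaged over IGF1, beside -0.00054 over all tested features. Under either rescaling of the libraries that median stayed between -0.15 and -0.14, with 8 of 9 members below 0.

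Without IGF1, 6 of the 9 members had TMEM216 libraries that did not overlap the Ctrl libraries, against 21.8% of all tested features. CDKN1A, GADD45A, BBC3, PMAIP1 and TNFRSF10B lay lower in TMEM216 cells, and MDM2 lay higher. With IGF1 the members without overlap were BBC3 and GADD45A, both lower, 2 of 9 against 19.7% of features. Over all 12 libraries the same genes, BBC3 and GADD45A, were without overlap, 2 of 9 against 4.39% of features. The comparisons with and without IGF1 set no library in common against each other, and the averaged one draws on both. Their tests still share an estimate of the spread taken from all 12 libraries. These overlaps were read on TPM without rescaling. Without IGF1 the median over members was -0.19, beside -0.05 over all features, with 8 of 9 members below 0. After quantile normalization it was -0.17, beside 0.0039 over all features, with 6 of 9 below 0. Median-of-ratios scaling gave -0.13, beside 0.0023, with 8 of 9 below 0. In that comparison the share of calls that were lower moved with scaling. It was 86% of 143 calls without rescaling. Quantile normalization gave 67.2% of 183 calls, and median-of-ratios scaling gave 67.6% of 170.

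**Figure D1:**
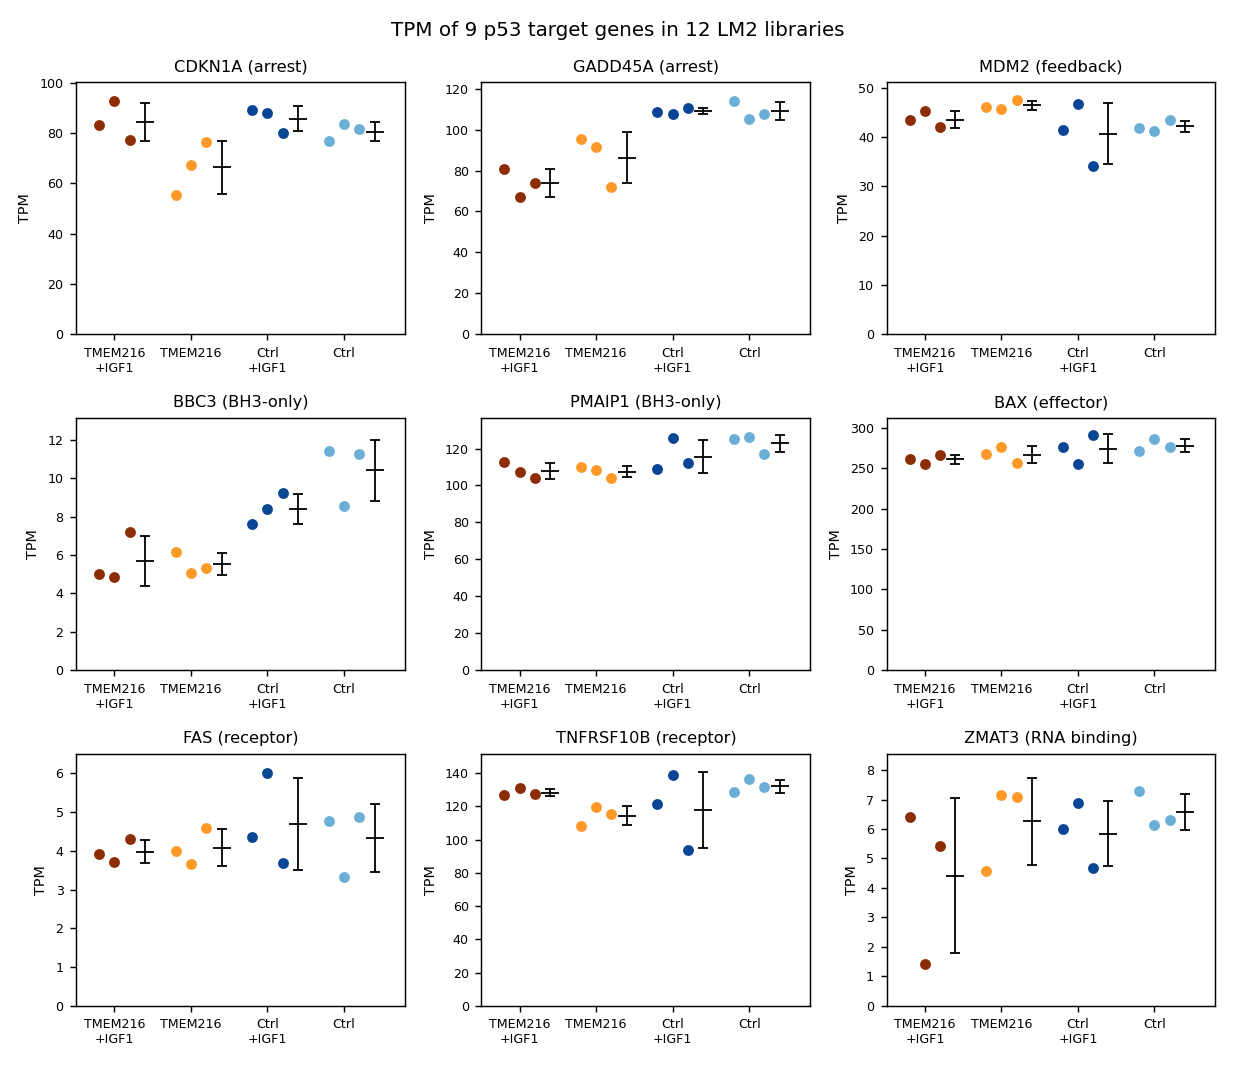
TPM of the 9 p53 targets in each of the 12 libraries, with groups on the horizontal axis from TMEM216 with IGF1 to Ctrl without IGF1; points are libraries, and the bar beside them is the mean with its SD (n = 3). BBC3 lies at or below 7.21 TPM in the 6 TMEM216 libraries and at or above 7.63 TPM in the 6 Ctrl libraries, and GADD45A at or below 95.6 TPM in the TMEM216 libraries and at or above 105 TPM in the Ctrl libraries.

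CDKN1A encodes p21, an inhibitor of cyclin-dependent kinases that holds cells in G1. It had 83.4, 92.7 and 77.4 TPM in TMEM216 cells with IGF1 and 55.3, 67.4 and 76.4 TPM in TMEM216 cells without it. Ctrl cells with IGF1 had 89.3, 88.0 and 80.2 TPM, and Ctrl cells without IGF1 had 76.8, 83.8 and 81.5 TPM. The TMEM216 libraries without IGF1 were the lowest of all 12, and the other 3 groups overlapped. Without IGF1 the log2 difference between TMEM216 and Ctrl was -0.29 (95% interval -0.53 to -0.05, adjusted p = 0.275), and it was -0.17 without TMEM216 replicate 1. With IGF1 it was -0.02 (95% interval -0.26 to 0.22, adjusted p = 0.930). Averaged over IGF1 it was -0.16 (95% interval -0.33 to 0.01, adjusted p = 0.293), and -0.10 without TMEM216 replicate 1. The ordering of group means, from 85.8 TPM in Ctrl with IGF1 through 84.5 TPM in TMEM216 with IGF1 and 80.7 TPM in Ctrl to 66.4 TPM in TMEM216, and none of the pairs tested passed.

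GADD45A encodes a small nuclear protein that binds PCNA and p21, activates the p38 and JNK pathways and takes part in the G2 checkpoint. It had 80.9, 67.2 and 73.7 TPM in TMEM216 cells with IGF1, against 108, 108 and 111 TPM in Ctrl cells with IGF1. All TMEM216 libraries lay below all Ctrl libraries, and the fall of 0.56 on the log2 scale passed the test (SE 0.10, adjusted p = 0.0195). In TMEM216 cells without IGF1 it had 95.6, 91.6 and 71.9 TPM, against 114, 105 and 108 TPM in Ctrl cells without IGF1. These groups were separated too, with a log2 difference of -0.34 that did not pass (95% interval -0.57 to -0.12, adjusted p = 0.149). It was -0.22 without TMEM216 replicate 3 and -0.42 without TMEM216 replicate 1. Averaged over IGF1 the fall was 0.45 (SE 0.07, adjusted p = 0.00431), seen in all 6 TMEM216 libraries. The call held in every alternative run for this average. The call with IGF1 was lost when only the 6 libraries compared were fitted (adjusted p = 0.0516). It was also lost without replicate 1 or 3 of Ctrl with IGF1 (adjusted p 0.0791 and 0.0584) and without replicate 2 or 3 of TMEM216 with IGF1 (adjusted p 0.103 and 0.0645). The size stayed between -0.56 and -0.49 in these fits. From high to low the group means were 109 TPM in both Ctrl groups, which IGF1 left 0.0010 apart on the log2 scale, 86.4 TPM in TMEM216 and 74.0 TPM in TMEM216 with IGF1, which did not differ past the threshold from each other. The Ctrl groups had a narrow spread, with SDs of 1.46 TPM with IGF1 and 4.39 TPM without, against 6.85 and 12.7 TPM in the TMEM216 groups.

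MDM2, the ubiquitin ligase of the feedback loop, had 43.4, 45.4 and 42.0 TPM in TMEM216 cells with IGF1 and 46.2, 45.8 and 47.6 TPM in TMEM216 cells without it. Ctrl cells had 41.4, 46.7 and 34.1 TPM with IGF1 and 41.9, 41.3 and 43.4 TPM without it. The TMEM216 libraries without IGF1 lay above their Ctrl libraries, by a log2 difference of 0.14 that did not pass the test (95% interval -0.08 to 0.35, adjusted p = 0.625). With IGF1 the difference was 0.11 (adjusted p = 0.622), and it was -0.01 without replicate 3 of the Ctrl cells with IGF1, the library at 34.1 TPM. Averaged over IGF1 it was 0.12 (95% interval -0.03 to 0.27, adjusted p = 0.368), and 0.06 without that library. Under all 3 scalings the MDM2 difference was above 0 with and without IGF1. The other members were at or below 0 apart from TNFRSF10B with IGF1 and, only after quantile normalization, FAS and ZMAT3 without IGF1. The MDM2 locus overlaps CPM, which runs on the opposite strand and was also tested. The sources used here do not say whether the libraries keep strand, so reads of the overlapping parts may be shared. The same holds for FAS with ACTA2 and for TNFRSF10B with RHOBTB2.

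BBC3 encodes PUMA, a BH3-only protein that neutralises the BCL2-type survival proteins and lets BAX and BAK1 open the mitochondrial outer membrane. In TMEM216 cells without IGF1 it had 6.17, 5.08 and 5.34 TPM, against 11.4, 8.56 and 11.3 TPM in Ctrl cells without IGF1. All TMEM216 libraries lay below all Ctrl libraries, and the fall of 0.80 on the log2 scale passed the test (SE 0.15, adjusted p = 0.0289). With IGF1 it had 4.99, 4.87 and 7.21 TPM in TMEM216 cells, against 7.63, 8.37 and 9.21 TPM in Ctrl cells. These groups also did not overlap, and the log2 difference was -0.51 (95% interval -0.84 to -0.17, adjusted p = 0.137). Averaged over IGF1, BBC3 fell by 0.65 (SE 0.11, adjusted p = 0.00483) with all 6 TMEM216 libraries lower, a call that held in every alternative run. The call without IGF1 was lost after quantile normalization (adjusted p = 0.0686), median-of-ratios scaling (0.0512), with no filter on low values (0.0532) and when only the 6 libraries compared were fitted (0.0833). It was also lost without replicate 1 or 3 of Ctrl (adjusted p 0.140 and 0.139) and without replicate 2 or 3 of TMEM216 (adjusted p 0.120 and 0.0687). The size stayed between -0.80 and -0.71 across these. From high to low the group means were 10.4 TPM in Ctrl, 8.40 TPM in Ctrl with IGF1, 5.69 TPM in TMEM216 with IGF1 and 5.53 TPM in TMEM216, and within each population the IGF1 comparison did not pass.

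PMAIP1 encodes NOXA, a BH3-only protein that binds MCL1. It had 113, 107 and 104 TPM in TMEM216 cells with IGF1, 110, 109 and 104 TPM in TMEM216 cells without it, 109, 126 and 112 TPM in Ctrl cells with IGF1 and 125, 126 and 117 TPM in Ctrl cells without it. The TMEM216 libraries without IGF1 all lay below their Ctrl libraries, by a log2 difference of -0.19 (95% interval -0.34 to -0.03, adjusted p = 0.272), and the groups with IGF1 overlapped. Averaged over IGF1 the difference was -0.14 (95% interval -0.25 to -0.03, adjusted p = 0.133). BAX, a pore-forming effector of the mitochondrial route, was the most abundant member and the steadiest. It ranged from 256 to 267 TPM in TMEM216 cells with IGF1, from 256 to 276 TPM in TMEM216 cells without it, from 256 to 292 TPM in Ctrl cells with IGF1 and from 272 to 287 TPM in Ctrl cells without it. Its averaged log2 difference was -0.06 (95% interval -0.16 to 0.03, adjusted p = 0.481). In TPM, a per-length scale, BAX thus stood at 270 TPM over the 12 libraries, PMAIP1 at 113 TPM and BBC3 at 7.51 TPM, so the member of this arm with the call was the least abundant of the 3.

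FAS, the receptor of FAS ligand, was among the lowest members. It had 3.92, 3.71 and 4.30 TPM in TMEM216 cells with IGF1 and 4.01, 3.65 and 4.59 TPM in TMEM216 cells without it, against 4.36, 6.00 and 3.70 TPM in Ctrl cells with IGF1 and 4.78, 3.31 and 4.88 TPM in Ctrl cells without it. All groups overlapped, and the averaged log2 difference was -0.12 (95% interval -0.37 to 0.14, adjusted p = 0.661). With IGF1 the FAS difference was -0.17 (adjusted p = 0.635), and -0.30 without replicate 3 of Ctrl with IGF1. TNFRSF10B, which encodes the TRAIL receptor DR5, had 127, 131 and 127 TPM in TMEM216 cells with IGF1, against 121, 139 and 93.7 TPM in Ctrl cells with IGF1. In TMEM216 cells without IGF1 it had 108, 120 and 116 TPM, against 128, 136 and 132 TPM in Ctrl cells without it. The groups without IGF1 were separated, with a log2 difference of -0.21 (95% interval -0.45 to 0.04, adjusted p = 0.483). The groups with IGF1 overlapped, with a difference of 0.14 (95% interval -0.11 to 0.39, adjusted p = 0.570), which was -0.02 without replicate 3 of Ctrl with IGF1. The change of the TNFRSF10B difference with IGF1 was 0.35 (95% interval -0.0018 to 0.69, adjusted p = 0.754), and it was 0.19 without replicate 3 of Ctrl with IGF1 and 0.15 without TMEM216 replicate 1 as well. Averaged over IGF1 the TNFRSF10B difference was -0.03 (95% interval -0.21 to 0.14, adjusted p = 0.869), and 0.03 and -0.11 without replicates 2 and 3 of Ctrl with IGF1.

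ZMAT3 encodes an RNA-binding zinc-finger protein that acts on splicing and on the stability of AU-rich transcripts. It had 6.41, 1.42 and 5.43 TPM in TMEM216 cells with IGF1, 4.56, 7.15 and 7.09 TPM in TMEM216 cells without it, 6.00, 6.87 and 4.66 TPM in Ctrl cells with IGF1 and 7.28, 6.12 and 6.32 TPM in Ctrl cells without it. A single library, replicate 2 of TMEM216 with IGF1, lay far below the other 11. With IGF1 the log2 difference was -0.48 (95% interval -1.21 to 0.25, adjusted p = 0.510), and it was 0.03 without that library. Averaged over IGF1 it was -0.28 (adjusted p = 0.575), and -0.03 without that library. Without IGF1 it was -0.08 (adjusted p = 0.962), and 0.10 without TMEM216 replicate 1. ZMAT3 had the widest interval of the members.

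**Figure D2:**
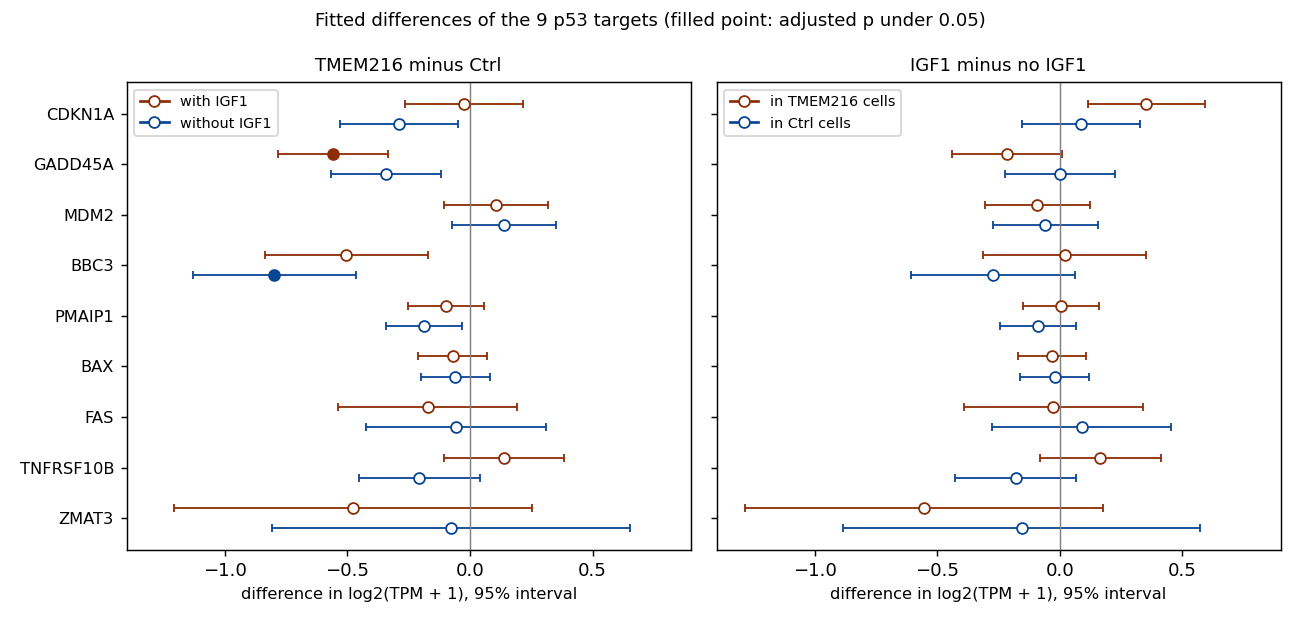
Differences in log2(TPM + 1) of the 9 p53 targets with 95% intervals from limma, TMEM216 minus Ctrl on the left and IGF1 minus no IGF1 on the right; filled points have an adjusted p under 0.05. The filled points are GADD45A with IGF1 at -0.56 and BBC3 without IGF1 at -0.80, both on the left, and no IGF1 difference is filled.

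IGF1 itself moved none of the 9 members past the threshold by limma. In TMEM216 cells the count was 0 of 9, against 0.0153% of all features, in Ctrl cells 0 of 9 against 0.0306%, and averaged over both populations 0 of 9 against 0.0536%. At an unadjusted p under 0.05 there was 1 member in TMEM216 cells, 0 in Ctrl cells and 1 in the average, CDKN1A each time, where 4.77%, 6.89% and 5.88% of all features reached that level. In TMEM216 cells its libraries with IGF1 all lay above those without, at 84.5 ± 7.72 TPM against 66.4 ± 10.6 TPM (SD, n = 3 each), a log2 difference of 0.35 (95% interval 0.11 to 0.59, adjusted p = 0.807). Without TMEM216 replicate 1 it was 0.23. In Ctrl cells the CDKN1A difference was 0.09 (95% interval -0.15 to 0.33, adjusted p = 0.774). The IGF1 differences of the other 8 members lay between -0.56 for ZMAT3 and 0.17 for TNFRSF10B in TMEM216 cells, and between -0.27 for BBC3 and 0.09 for FAS in Ctrl cells. The ZMAT3 value was -0.05 without replicate 2 of TMEM216 with IGF1. In TMEM216 cells 3 of 9 members had IGF1 libraries that did not overlap those without, CDKN1A and TNFRSF10B higher and MDM2 lower, against 10.2% of all features. In Ctrl cells there were 0 of 9, against 14.6% of features. Of all the accompanying lists, IGF1 moved ASNS alone past the threshold, to 65.4 TPM with IGF1 against 83.4 TPM without it in the average over populations (adjusted p = 0.0426), in 7 of 20 alternatives. That call was lost without any 1 library other than replicates 2 and 3 of Ctrl with IGF1 (adjusted p up to 0.179).

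Whether IGF1 altered the TMEM216 difference was tested as an interaction, which called 0 of 9 members against 0.0153% of all features, with 0 members at an unadjusted p under 0.05, against 5.38% of features. For BBC3 the difference was less negative with IGF1 by 0.29 (95% interval -0.18 to 0.76, adjusted p = 0.754), and for GADD45A it was more negative, with an interaction of -0.22 (95% interval -0.53 to 0.10, adjusted p = 0.754). The BBC3 interaction was 0.14 without replicate 3 of TMEM216 with IGF1, and 0.15 and 0.19 after quantile and median-of-ratios scaling. Over all alternatives it lay between 0.14 and 0.42. The GADD45A interaction was -0.14 without TMEM216 replicate 1, -0.13 without that library and replicate 3 of Ctrl with IGF1, -0.34 without TMEM216 replicate 3 and -0.33 after median-of-ratios scaling. CDKN1A had an interaction of 0.27, or 0.14 without TMEM216 replicate 1, and ZMAT3 one of -0.40, or 0.10 without replicate 2 of TMEM216 with IGF1. MDM2, PMAIP1, BAX and FAS had interactions of -0.03, 0.09, -0.01 and -0.12. After median-of-ratios scaling these were -0.14, -0.02, -0.12 and -0.20. The same scaling gave 0.16 for CDKN1A, 0.24 for TNFRSF10B and -0.49 for ZMAT3. The calls of BBC3 without IGF1 and of GADD45A with IGF1 are thus not shown to be particular to those conditions. The median interaction over all features was 0.11, and median-of-ratios scaling shifted it by -0.103.

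Of 22 tested genes of a list of regulators of p53, 0 passed by limma in the average, against 5.22% of all features. At an unadjusted p under 0.05, 3 lay lower and 0 higher, against 11.1% and 8.93% of all features. The median difference over this list was 0.02, beside -0.00054 over all features. MDM4, the relative of MDM2 that masks the transactivation domain of p53, averaged 20.5 TPM in TMEM216 cells and 20.0 TPM in Ctrl cells.

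Of 51 other genes described as p53 targets, 46 were tested, and 3 fell in TMEM216 cells averaged over IGF1 while 0 rose, where 3.21% of all features were called lower and 2% higher; the list's median was -0.04, beside -0.00054 over all features. SESN2, a sestrin that restrains mTORC1 when leucine is short, fell to 7.67 ± 0.821 TPM in TMEM216 cells, against 16.3 ± 1.03 TPM in Ctrl cells (SD, n = 6 each), by 1.00 on the log2 scale (adjusted p = 2.03e-05). GDF15, a secreted stress cytokine, fell to 5.70 ± 0.940 TPM in TMEM216 cells, against 9.40 ± 1.26 TPM in Ctrl cells (adjusted p = 0.00323). SFN, the 14-3-3 sigma protein that sequesters cyclin B1 complexes, fell to 98.3 ± 6.53 TPM in TMEM216 cells, against 126 ± 4.54 TPM in Ctrl cells (adjusted p = 0.00215). The libraries of all 3 genes did not overlap, and each averaged call held in all 20 alternatives run. The list holds described p53 targets, and whether p53 had a part in these falls was not tested. Within 1 IGF1 condition, 2 of the 46 were called lower with IGF1 (SESN2 and SFN), against 0.696% of all features, and 3 without it (SESN2, GDF15 and SFN), against 0.941%. SESN2 held in all 21 alternatives of each condition, whereas GDF15 held in 8 of 21 without IGF1, and SFN in 7 of 21 with IGF1 and 9 of 21 without it. The GDF15 call was lost without any 1 of the 6 libraries compared, or without replicate 1 or 3 of TMEM216 with IGF1, with an adjusted p of up to 0.171. With all 12 libraries it was also lost after quantile normalization (adjusted p = 0.110) and median-of-ratios scaling (0.0789). The SFN call with IGF1 was lost without any 1 replicate of TMEM216 with IGF1 or of Ctrl, without replicate 1 or 3 of Ctrl with IGF1 and without TMEM216 replicate 2 (up to 0.167). The SFN call without IGF1 was lost without any 1 replicate of Ctrl, replicate 2 or 3 of TMEM216, or replicate 1 of either IGF1 group (up to 0.146). Quantile normalization (adjusted p = 0.0546) and median-of-ratios scaling (0.136) of all 12 libraries ended that call too. Median-of-ratios scaling also ended the SFN call with IGF1 (0.0531).

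**Figure D3:**
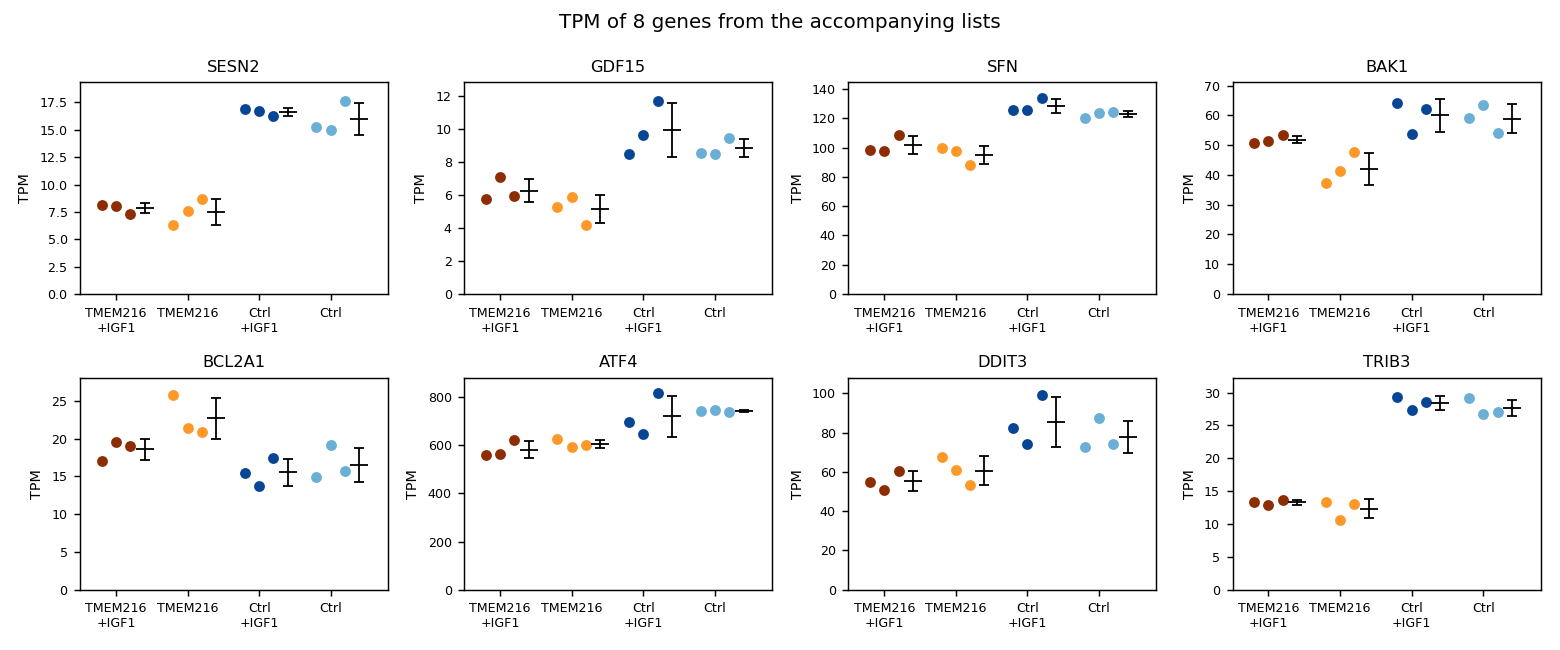
TPM of 8 genes from the accompanying lists in the 12 libraries, drawn as in the plot of the members. SESN2 lies at 8.64 TPM or lower in the 6 TMEM216 libraries and at 15.0 TPM or higher in the 6 Ctrl libraries; ATF4 was chosen for display after its values were seen.

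The partners of the death arm were read from lists of the BCL2 family and the death receptor pathway. Of 10 tested BCL2 family genes, 1 fell and 1 rose in the average, against 3.21% of all features called lower and 2% called higher, and the list's median was 0.04. BAK1, the other pore-forming effector, fell to 46.9 ± 6.42 TPM in TMEM216 cells, against 59.5 ± 4.67 TPM in Ctrl cells (SD, n = 6 each, log2 difference -0.34, adjusted p = 0.0175). This call was lost without Ctrl replicate 2 (adjusted p = 0.0566), Ctrl with IGF1 replicate 1 (0.0545) or TMEM216 with IGF1 replicate 1 (0.0520). BAK1 was also called without IGF1 (adjusted p = 0.0482), in 5 of 21 alternatives, and leaving out any 1 replicate of Ctrl or of TMEM216 with IGF1, replicate 1 or 2 of TMEM216 or replicate 1 of Ctrl with IGF1 ended that call (adjusted p up to 0.213). Quantile normalization (adjusted p = 0.0780) and median-of-ratios scaling (0.102) ended it as well. BCL2A1, a survival protein of the family, rose to 20.6 ± 2.96 TPM in TMEM216 cells, against 16.0 ± 1.91 TPM in Ctrl cells (log2 difference 0.34, adjusted p = 0.0429). The BCL2A1 call held in 7 of 20 alternatives, and was lost without any 1 replicate of TMEM216 with IGF1, replicate 1 or 2 of TMEM216 or of Ctrl with IGF1, or replicate 1 or 3 of Ctrl, where its adjusted p reached 0.112. It was also lost after quantile normalization (adjusted p = 0.0747) and median-of-ratios scaling (0.0726). MCL1, the partner of NOXA, averaged 289 TPM in TMEM216 cells and 280 TPM in Ctrl cells (adjusted p = 0.771). Of 20 tested genes of the death receptor pathway, 0 passed in the average by limma, against 5.22% of all features. At an unadjusted p under 0.05, 1 lay lower and 1 higher, against 11.1% and 8.93% of all features, and the list's median was 0.03. CASP8, the initiator caspase below both receptors, averaged 53.6 TPM in TMEM216 cells and 53.1 TPM in Ctrl cells.

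Of 16 tested cell-cycle partners of p21 and GADD45 relatives, 2 fell and 0 rose in the average, against 3.21% of all features called lower, with a median of -0.02. CCND2, a D-type cyclin, fell to 4.96 ± 0.626 TPM in TMEM216 cells, against 7.62 ± 0.709 TPM in Ctrl cells (SD, n = 6 each, adjusted p = 0.00642), in all 20 alternatives run. CCND3, another D-type cyclin, fell to 165 ± 12.4 TPM in TMEM216 cells, against 196 ± 12.6 TPM in Ctrl cells (adjusted p = 0.0393), a call that held in 7 of 20 alternatives and was lost without any 1 replicate of TMEM216 with IGF1 or of Ctrl, or replicate 2 or 3 of TMEM216 or of Ctrl with IGF1 (adjusted p up to 0.107). Median-of-ratios scaling ended the CCND3 call as well (adjusted p = 0.0768). PCNA, which both p21 and GADD45A bind, averaged 528 TPM in TMEM216 cells and 489 TPM in Ctrl cells (adjusted p = 0.176).

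A list of 16 genes held stress and growth factors known to act on several members without p53, together with some of those factors' own targets. In the average 10 of the 16 fell and 0 rose, against 3.21% of all features called lower, and the list's median was -0.35, beside -0.00054 over all features. CHAC1, a glutathione-degrading enzyme, fell to 6.00 ± 1.03 TPM in TMEM216 cells, against 24.3 ± 4.48 TPM in Ctrl cells (SD, n = 6 each, log2 difference -1.84, adjusted p = 1.06e-06). TRIB3, a pseudokinase, fell to 12.8 ± 1.11 TPM in TMEM216 cells, against 28.0 ± 1.12 TPM in Ctrl cells, and ASNS, asparagine synthetase, fell to 50.3 ± 7.35 TPM in TMEM216 cells, against 98.6 ± 13.7 TPM in Ctrl cells. ATF3, DDIT4 and PPP1R15A also fell, by 0.69, 0.36 and 0.42 on the log2 scale (adjusted p 0.00262, 0.00297 and 0.00398). These 6 averaged calls held in all 20 alternatives. KLF4, named above for CDKN1A, fell by 0.52 on the log2 scale in the average, also in all 20 alternatives. SP1, named with it, was not called in any comparison of TMEM216 with Ctrl cells. ATF4, singled out after its values were seen, fell to 593 ± 27.3 TPM in TMEM216 cells, against 730 ± 56.2 TPM in Ctrl cells (adjusted p = 0.0108), and missed the threshold after median-of-ratios scaling (0.0533). DDIT3, which encodes CHOP, fell to 58.0 TPM in TMEM216 cells, against 81.7 TPM in Ctrl cells (adjusted p = 0.00784); it overlaps MARS1 and MBD6 on the opposite strand. Within 1 IGF1 condition 6 of the 16 fell with IGF1, against 0.696% of all features, and 5 without it, against 0.941%. CHAC1, ASNS and TRIB3 fell in both, in all 21 alternatives of each. PPP1R15A, ATF3 and DDIT3 were the others with IGF1, in 16, 17 and 9 of 21 alternatives, and KLF4 and DDIT4 the others without it, in 13 and 7 of 21. With single libraries left out, the adjusted p reached 0.10 for PPP1R15A, 0.0975 for ATF3, 0.138 for DDIT3, 0.126 for KLF4 and 0.180 for DDIT4. Median-of-ratios scaling also ended the calls of DDIT3 with IGF1 (adjusted p = 0.0533) and of DDIT4 without it (0.0830). The list was drawn up with results of these libraries known, so its direction is no independent evidence, and its part in the values of BBC3 and GADD45A was not tested. The 2 other members described as ATF4 or CHOP responsive, PMAIP1 and TNFRSF10B, were not called in any comparison. Their log2 differences were -0.19 and -0.21 without IGF1, with no overlap of libraries, and -0.10 and 0.14 with IGF1, with overlap. Whether any member follows these factors was not tested.

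**Figure D4:**
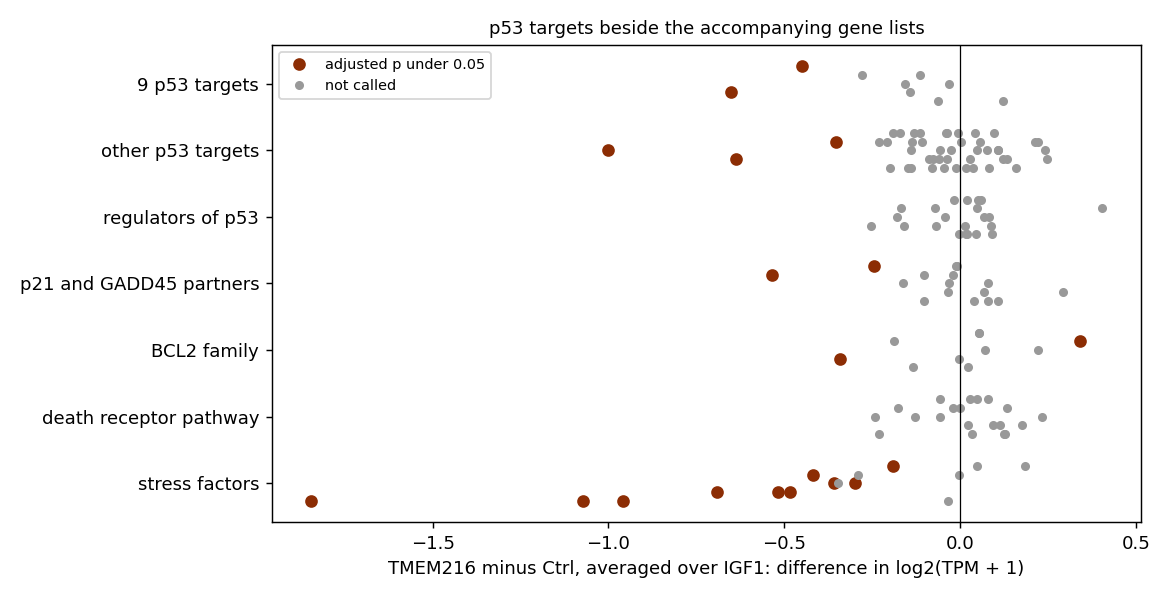
Difference in log2(TPM + 1), TMEM216 minus Ctrl averaged over IGF1, for each tested gene of the 7 lists; each point is a gene, dark points have an adjusted p under 0.05, and the vertical offset within a row only separates points. BBC3 at -0.65 and GADD45A at -0.45 are the dark points among the 9 p53 targets, and the stress factors hold 10 dark points, all below 0.

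In how they varied over the 12 libraries, the members did not form a single block. Among their 36 pairs, Pearson's r of log2(TPM + 1) was highest for BBC3 with GADD45A, at 0.79, and lowest for MDM2 with BAX, at -0.77. CDKN1A with BBC3 had an r of 0.16, and GADD45A with ZMAT3 one of 0.47. These are descriptions over 12 libraries of 4 groups that share the scaling of TPM, with no test. Group means were not removed, so the r of BBC3 with GADD45A partly restates their lower levels in TMEM216 cells. Among 10305 features with a mean of at least 5 TPM, those most like BBC3 were SPATA20 (r = 0.93) and PIM1 (0.92), and r within groups was 0.69 and 0.44. Those most like GADD45A were KRTAP2-3 and KRTAP2-4 (both 0.96, and 0.78 and 0.76 within groups), near-identical neighbours between which reads may be split. For TNFRSF10B they were RNF103 and TMEM43 (both 0.97), and for MDM2 SPATA5 and DPY19L4 (both 0.95). CDKN1A was most like NOMO3 (0.90) and PSMB2 (0.90), BAX most like HSBP1L1 (0.93) and NME3 (0.92), and PMAIP1 most like MPPE1 (0.91) and THAP10 (0.91). The nearest to FAS were PLEKHO2 (0.86) and BCAP29 (0.83), and to ZMAT3 ZSCAN9 (0.90) and RAD50 (0.84). In bulk RNA, fewer cells expressing a gene and less RNA per cell cannot be told apart.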

How the data were processed

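Per the labels' protocols, total RNA of LM2 cells was made into Illumina TruSeq RNA libraries. The authors deposited TPM per gene, with gene symbols, for 12 libraries; the tools named, per the submitters' processing notes, were HISAT2, StringTie and RSEM. For tool versions, genome build, annotation and strandedness, the sources used here give nothing. TPM totals 1000000 in each library and keeps no depth, so counting intervals are not given, and the number of libraries limits the precision.

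From these values log2(TPM + 1) was fitted with limma 3.58.1 (R 4.3.3) on the 4 group means, with a mean-variance trend, over the 13071 features with at least 1 TPM in at least 3 libraries, 519 of them assembled MSTRG features. The 7 two-sided contrasts were adjusted by Benjamini-Hochberg over all features. The code was tested on simulated data. Figures used matplotlib 3.10.9 and Python 3.11.15. All 9 members were fitted in every contrast and are described by value or range. Other lists are named by at most the 6 smallest p among calls, and 2 most alike features per member. Genes named outside this rule were MDM4, MCL1, CASP8, PCNA, ATF4, SP1 and, in the average, DDIT3 and KLF4. They were picked for their place in the pathway after values were seen. The members and lists were chosen with earlier results of these data known, and 2 listed genes are not reported here. Overlapping genes were read from GENCODE 29 and promoters from RefSeq (GRCh38.p14). Alternatives changed the pseudocount, filter, scaling, trend, block and libraries.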

Additional observations from a re-analysis of the deposited data

How the results depend on the processing

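Of 1289 recomputed member values, 1218 kept their direction and side of the threshold, 13 lost a call, 0 gained one and 0 calls reversed; 58 values without a call changed sign. Most of these values belong to results that had no call to lose. The averaged calls of BBC3 and GADD45A held throughout. All 13 losses were of BBC3 without IGF1, called in 13 of 21 alternatives, or of GADD45A with IGF1, called in 16 of 21. The count of members called without IGF1 was 1 and became 0 with no filter, after quantile normalization, after median-of-ratios scaling and with only the 6 libraries compared; leaving out single libraries gave 0 to 1. The count with IGF1 was 1, became 0 with only the 6 libraries compared, and ranged from 0 to 1 when single libraries were left out. With fewer libraries fitted, fewer degrees of freedom remain; otherwise the cause was not tested. Same-numbered libraries did not deviate together, with correlations from -0.286 to 0.165, so the numbers were not taken as pairs. With a replicate block the members called stayed at 1 with IGF1, 1 without it and 2 in the average, while calls over all features went to 140 with IGF1, 77 without and 499 in the average, against 211, 143 and 682 without the block. Scaling moved the averaged calls over all features to 959 (quantile) and 953 (median of ratios).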
